A study of Danaus plexippus with 48 samples.

Results

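Brains of autumn migrants of the monarch butterfly, Danaus plexippus, were compared with brains of laboratory monarchs on short days, first in hours that were lit in both groups and then in hours that were dark in both. The 28 libraries compared, of 48 in the series, were chosen by the group and the time in their titles. Migrant butterflies were caught wild in autumn and kept indoors in a cycle of 11 h light to 13 h dark. The short-photoperiod group, SP, was raised indoors from eggs in a cycle of 10 h light to 14 h dark, with larvae on a semi-artificial diet from the second instar. Both groups were of wild-type genotype and were held at 21 degrees C for at least 7 days before sampling. Times are given as ZT (zeitgeber time), counted in hours from lights-on; lit hours were ZT 1, 4 and 7, with 6 libraries in each group, and dark hours were ZT 13, 16, 19 and 22, with 8 libraries in each. ZT 10 falls at lights-off in SP and in the light in Migrant and entered neither contrast. The remaining group, LP (long photoperiod, 15 h light to 9 h dark, otherwise raised as SP), was used for scaling and as a reference level. Each library was a pool of 3 brains from which the pigmented photoreceptor layer of the retina had been removed, and each group and time had 2 pools, 1 labelled female and 1 labelled male. Nothing beyond the pools themselves marks them as separate cohorts, so the p-values measure the spread between these pools. The 2 pools of a group and time differ in sex label, so this spread also holds any difference between the sexes.

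In autumn, eastern North American monarchs stop reproducing and fly south, steering by a sun compass that is corrected by a circadian clock in the antennae and brain. Shortening days are among the cues that set this state, and the insect brain reads day length with clock proteins such as period, timeless and the cryptochromes. Laboratory short days resemble the day length that migrants meet but leave out capture, flight, outdoor rearing and the natural fall of day length and temperature. Comparing the groups separately by day and by night asks whether their difference is a constant one of level or depends on the light phase.

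The deposited tables pair no gene identifier with a name, and 0 of 15130 matched an entry of the RefSeq gene table of assembly MEX_DaPlex. Genes are therefore given by identifier and by scaffold position as the files write it; the sources used here do not name the build. Their functions are not stated, and neither brain markers nor markers of other tissues could be looked up. Levels are FPKM (fragments relative to transcript length and to all mapped fragments), divided by a factor for each library (scaled FPKM), and fold changes are on the log2(scaled FPKM + 1) scale, which understates the change of low genes.

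Between 5.47 M and 9.46 M reads (M, 1e6) per library fell in genes. All Migrant libraries were made with the NEBNext Ultra Directional kit and all SP libraries with the TruSeq Stranded mRNA kit, so kit, wild origin, rearing and group cannot be told apart in any result below. Relative to the fragments to which FPKM was scaled, the share of reads that fell in genes was 0.734 ± 0.036 of the LP mean in Migrant and 1.09 ± 0.04 in SP (SD, n = 14 each). Migrant ZT22 replicate 1 stood apart, with a median correlation of 0.866 with its own group where the other 13 Migrant libraries had 0.969 to 0.974. In SP, ZT1 replicate 1 and ZT4 replicate 1 correlated at 0.924 and 0.93 with the other library of their time, beside 0.958 to 0.978 at the other 5 times.

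In lit hours most genes differed between migrants and short-day butterflies. Of 11630 genes tested, 7684 (66.1%) were called at a limma adjusted p under 0.05, 4016 higher (34.5%) and 3668 lower (31.5%) in Migrant. On scaled values large rises outnumbered large falls. Called genes at least 2-fold higher numbered 2316 (19.9%), against 1289 (11.1%) at least 2-fold lower, together 31.0% of genes, and 156 were at least 8-fold higher against 29 at least 8-fold lower. The median absolute log2 fold change was 0.667, with a median SE of 0.19. In 5824 genes (50.1%) the 6 Migrant libraries did not overlap the 6 SP libraries, 3035 with Migrant above and 2789 with Migrant below. Without scaling, 36.8% of the calls were higher in Migrant, where scaled values gave 52.3%, the median log2 fold change was -0.238 in place of 0.01, and the order of large changes turned round, with 1722 genes at least 2-fold higher and 2239 lower.

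The genes named here had a value above 0 in all 28 libraries, at least 20 reads per library, and no overlap between the groups in the phase in question, conditions that 5261 of 9684 such well-read genes met in lit hours. Larger fitted values existed in genes that these conditions leave out. DPOGS208405 (scaffold DPSCF300241, 20129 to 23710) had a scaled FPKM of 0.6 at the lowest, 1.6 at the median and 5.32 at the highest in SP. In Migrant the corresponding values were 194, 273 and 364. Every Migrant library thus lay above every SP library by more than an order of magnitude. The log2 fold change was 6.49 ± 0.35 in lit hours (SE, limma adjusted p = 8.7e-10) and 6.41 ± 0.31 in dark hours (limma adjusted p = 6.61e-11). LP libraries at the same 7 times ran from 39.6 to 134 with a median of 79.7, between the other groups and, on the log2 scale, nearer to Migrant.

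DPOGS205604 (DPSCF300167, 68841 to 98535) was also higher in Migrant, at high read numbers. Its scaled FPKM in lit hours was 1.66, 2.81 and 4.57 in SP (lowest, median, highest) and 150, 174 and 188 in Migrant, on 535 and 32900 reads per library on average. The groups were far apart, with a mean of 3 (SD 1.15) in SP and 171 (SD 16) in Migrant. Relative to its level, Migrant was tight and SP varied more. The log2 fold change was 5.47 ± 0.21 (SE, limma adjusted p = 7.18e-12), and in dark hours it was 5.5 ± 0.18 (limma adjusted p = 5.31e-13). LP again lay between, with a median of 32.9.

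Among genes lower in Migrant, DPOGS214529 (DPSCF300287, 19956 to 31315) had a scaled FPKM of 70.8, 192 and 699 in SP in lit hours and of 1.65, 3.61 and 7.57 in Migrant. SP libraries varied widely, with the highest and the lowest both at ZT1, in replicate 1 and replicate 2, and even the lowest was above all Migrant libraries. The log2 fold change was -5.59 ± 0.53 (SE, limma adjusted p = 3.22e-07), resting on 8.82 reads per Migrant library. LP, with a median of 157, lay with SP. DPOGS204890 (DPSCF300307, 79099 to 79818) had 3160, 4550 and 6330 in SP and 145, 170 and 478 in Migrant, with a log2 fold change at -4.31 ± 0.4 (limma adjusted p = 2.51e-07). Every Migrant library was below every SP library, and LP, with a median of 2170, lay between the groups, nearer to SP on the log2 scale.

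**Figure D1:**
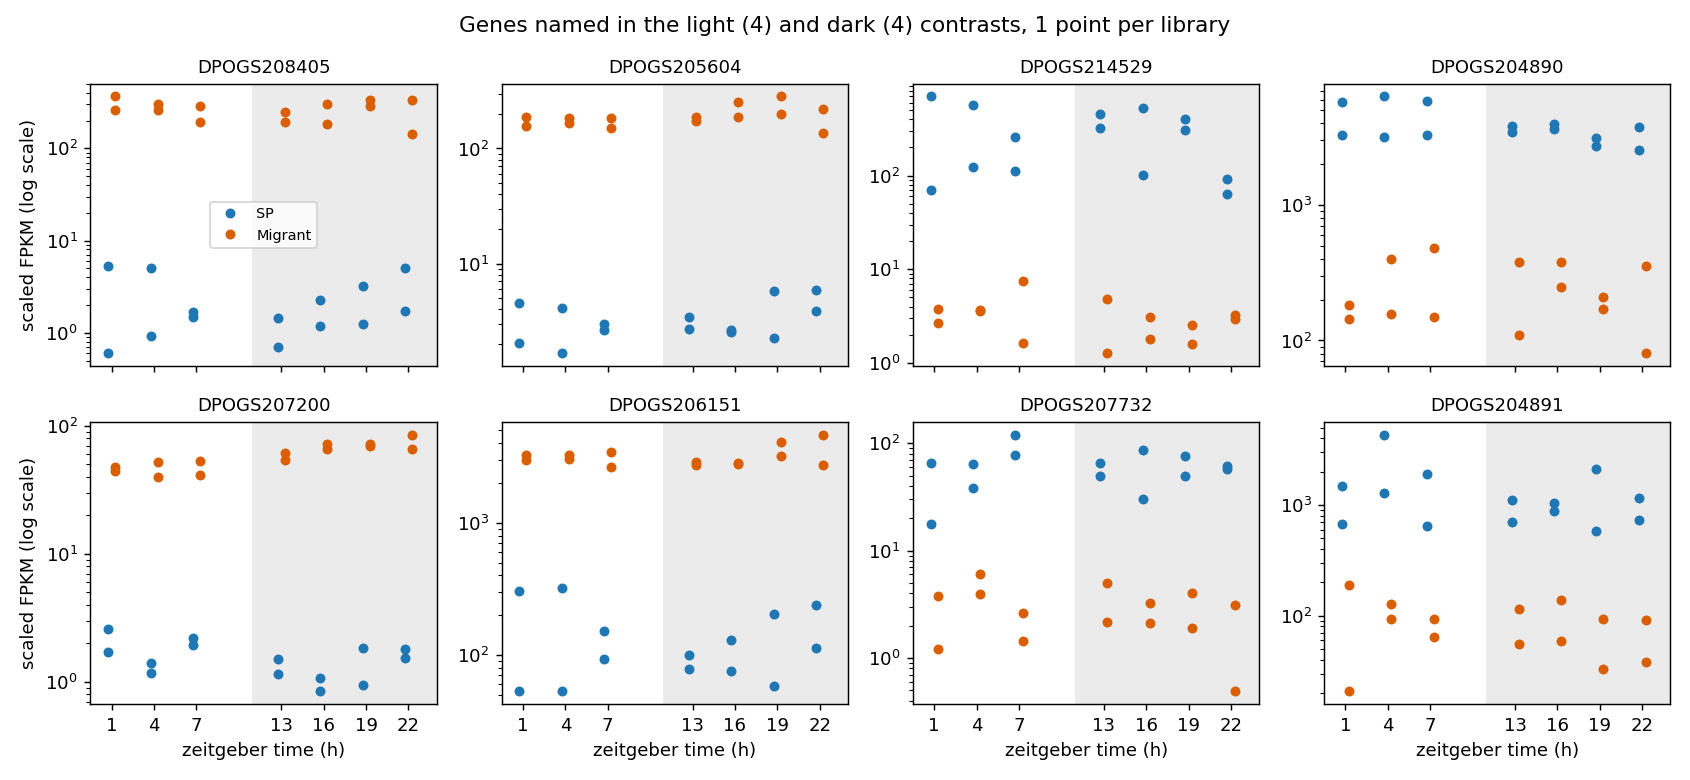
Scaled FPKM (log axis) against zeitgeber time for 8 genes that met the conditions in the text, 4 taken for lit hours (top row) and 4 for dark hours (bottom row), 1 point per library, SP in blue and Migrant in orange; grey marks hours dark in both groups. In each panel all 14 Migrant points lie on 1 side of all 14 SP points, and for DPOGS207200 the distance is wider in the dark than in the light.

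In dark hours the picture was the same in extent. At a limma adjusted p under 0.05, 7904 genes (68.0%) passed, with Migrant above SP in 3977 (34.2%) and below in 3927 (33.8%). At least 2-fold differences were found upward in 2113 called genes (18.2%) and downward in 1119 (9.62%), together 27.8% of genes, and at least 8-fold differences in 166 and 33. Migrant and SP libraries did not overlap in 4767 genes (41.0%), 2540 with Migrant above and 2227 with Migrant below. These 16 libraries hold Migrant ZT22 replicate 1. Without it 8333 genes were called in dark hours, 4219 higher and 4114 lower. Without that library and the SP replicates 1 of ZT1 and ZT4, 7787 of the 7904 calls kept their direction and their call. In lit hours, which hold both of these SP libraries, 6831 of the 7684 calls did. The SD over genes of the log2 fold change was then 0.914 in lit and 1.06 in dark hours. With all 28 libraries it was 1.11 and 1.07. Without scaling, 30.1% of calls were higher in Migrant, against 50.3%, with a median log2 fold change of -0.386 in place of -0.01, and 1399 genes were at least 2-fold higher against 2752 lower.

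DPOGS207200 (DPSCF300001, 5812782 to 5813623) had a scaled FPKM of 0.84, 1.32 and 1.85 in SP in the dark and 53.6, 68.1 and 85.4 in Migrant. In lit hours the values were 1.18, 1.82 and 2.58 in SP and 39.8, 45.6 and 52.9 in Migrant. Migrant was higher by night than by day, but its highest lit value, 52.9, lay just below its lowest dark value, 53.6. The SP ranges overlapped. The difference between phases, given below, did not pass the adjustment in the fit of 28 libraries. The log2 fold change was 4.9 ± 0.11 in the dark (SE, limma adjusted p = 4.02e-15) and 4.07 ± 0.13 in the light (limma adjusted p = 9.95e-13). LP stood at a median of 1.21, beside SP and not beside Migrant. The other leading gene, DPOGS206151 (DPSCF300028, 1571434 to 1574858), had 58.7, 106 and 237 in SP and 2720, 2860 and 4660 in Migrant in the dark, and the log2 fold change was 4.81 ± 0.38 (limma adjusted p = 2.43e-08). It was among the most abundant of the genes named, and LP, with a median of 1730, was nearer to Migrant on the log2 scale.

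DPOGS207732 (DPSCF300042, 1010337 to 1010962) had 30, 59.1 and 87.3 in SP in the dark and 0.487, 2.64 and 4.97 in Migrant, with a log2 fold change at -4.06 ± 0.31 (SE, limma adjusted p = 1.7e-08) on 7.13 reads per Migrant library. The lowest value belonged to Migrant ZT22 replicate 1, but the remaining Migrant libraries were also below all SP libraries. DPOGS204891 (DPSCF300307, 84524 to 85325), which follows DPOGS204890 on its scaffold, had 582, 965 and 2120 in SP and 32.8, 75.9 and 139 in Migrant, with a log2 fold change at -3.76 ± 0.46 (limma adjusted p = 2.15e-06). Adjacent on the scaffold, both were lower in Migrant; whether they share reads was not examined, so both levels are uncertain. LP medians were 37 for DPOGS207732 and 658 for DPOGS204891, in both genes nearer to SP on the log2 scale.

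The light and dark contrasts, which share no library, were close to each other gene by gene. A total of 6930 genes were called in both, which was 90.2% of the lit-hour calls and 87.7% of the dark-hour calls. Each of the 6930 had the same direction in both, 3625 higher and 3305 lower in Migrant, and 0 were called in opposite directions. Genes called in lit hours alone numbered 754 and in dark hours alone 974, and 722 and 927 of these had the same direction in the other phase. Over all 11630 tested genes, 10669 (91.7%) had the same direction in both phases, so these counts lie near the general share. Such genes are not shown to differ between the phases, since that needs the test of the difference. Across the 11630 genes, which are not independent replicates and share kit and rearing in both contrasts, the fold changes correlated at a Pearson r of 0.955 and a Spearman rho of 0.953. At least 2-fold differences in both phases were found upward in 1971 genes (16.9%) and downward in 917 (7.88%), together 24.8% of genes, and at least 4-fold differences in 593 and 78.

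**Figure D2:**
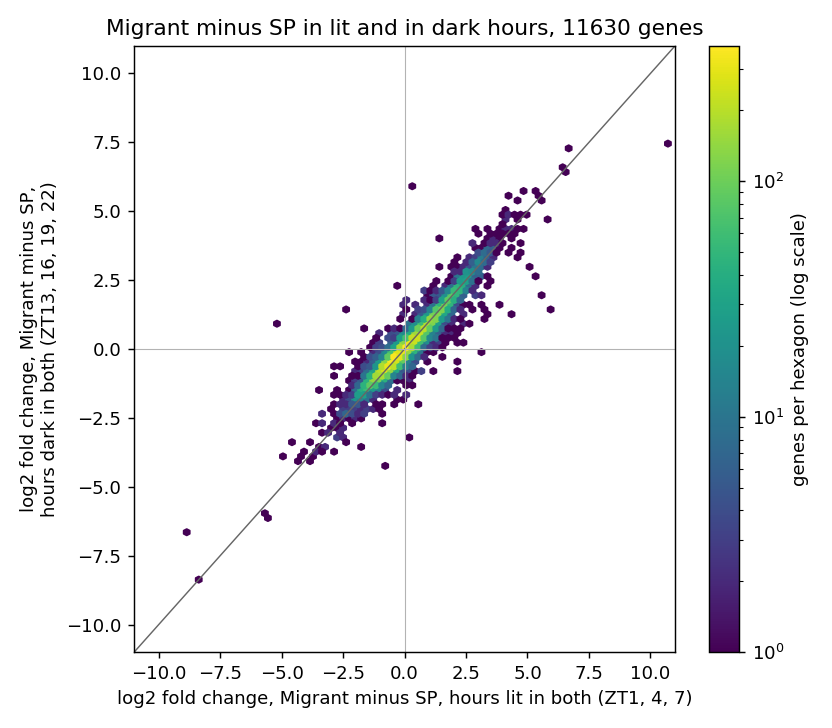
Log2 fold change of Migrant minus SP in dark hours against that in lit hours for 11630 genes, as a count per hexagon on a log colour scale; the grey diagonal marks equal values. Genes lie along the diagonal (Pearson r 0.955), with few at a distance from it.

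The single times make up the means by which these genes were called, so their values are a description only. Of the 6930 genes, 6626 had the same direction at all 7 times, and of the 2888 genes at least 2-fold different in both phases, 2853 did. The difference at each time correlated with the mean of the others at 0.936 to 0.946, except at ZT22, where it was 0.825. The ZT10 libraries, 2 in each group and outside these means, gave the same direction for 6886 of the 6930 genes (99.4%). The share over all tested genes at ZT10 was not taken. Fold changes at ZT10 correlated with the light contrast at 0.927 and with the dark contrast at 0.914. Over all 28 libraries, Migrant and SP did not overlap in 3862 genes (33.2%), 2148 with Migrant above and 1714 with Migrant below.

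Whether the contrast itself changed between light and dark was tested in the same fit, as the dark contrast minus the light contrast. Of the 11630 genes, 1 (0.00860%) was called (limma), with 208 at an unadjusted p under 0.05 where 581.5 would be expected with no differences at all. That number was 941 without the 3 libraries that stand apart, 2451 with SP replicate 1 alone and 841 with SP replicate 2 alone. The called gene, DPOGS210155 (DPSCF300379, 182994 to 183142), was listed at 0 in 26 of the 28 libraries. It had a scaled FPKM of 7.49 and 7.86 in the Migrant libraries of ZT19, each resting on 1 read, so no fold is given. With all 48 libraries in the fit, with voom, with the replicate block and at 10 reads per library or more, 0 genes were called. Leaving out 1 library in turn gave 0 to 2 calls, except without Migrant ZT22 replicate 2, where ZT22 rests on Migrant replicate 1 and 250 genes were called. Among the 9684 genes with the read support set for naming, 0 were called.

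The precision of this test was limited. The fit took 1 spread per gene for both groups and all times. The median SD between pools of 1 time was 0.41 in SP and 0.15 in Migrant by day, and 0.23 and 0.32 by night. These were not equal, so the intervals below are approximate. The median SE of the difference was 0.25 on the log2 scale, and its 95% interval lay within 1 log2 unit of 0 for 9015 genes (77.5%) and within 0.5 for 2515 (21.6%). For genes with 20 or more reads per library the former share was 84.6%, 8253 of 9760. These intervals are not adjusted for the number of genes, and a call after adjustment asked for more. DPOGS207200, with a difference of 0.827 ± 0.166 (SE), had a limma adjusted p of 0.66. Changes under 2-fold between day and night were therefore not detectable in many genes, and larger ones could also go uncalled. Genes without a call are not shown to be alike in both phases.

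The 4 well-read genes with the smallest unadjusted p for the difference, chosen after their values were seen, did not pass the adjustment in the fit of 28 libraries. With SP replicate 1 alone, DPOGS207200 (limma adjusted p = 0.0446) and DPOGS214271 (limma adjusted p = 0.0419) passed, and DPOGS207200 also passed without Migrant ZT22 replicate 2 (limma adjusted p = 0.012). DPOGS207200, described above, had a difference of 0.83 (95% interval 0.476 to 1.18, limma adjusted p = 0.66), made of a dark minus light change of -0.28 in SP and 0.55 in Migrant. DPOGS213038 (DPSCF300024, 765242 to 770852) had medians of 17.5 in SP and 25 in Migrant in the light, and 13 and 25.9 in the dark. Its groups overlapped by day and were apart by night, and the difference was 0.56 (0.235 to 0.88, limma adjusted p = 1). DPOGS207276 (DPSCF300008, 11564 to 16731) had medians of 6.53 in SP and 6.55 in Migrant in the light, and 11.1 and 6.66 in the dark, a difference of -0.83 (-1.33 to -0.337, limma adjusted p = 1). Its dark minus light change was 0.81 in SP and -0.03 in Migrant. DPOGS214271 (DPSCF300014, 1736873 to 1745073) was above SP in Migrant in both phases, with medians of 57.4 against 22.2 by day and 51.1 against 31.2 by night, a difference of -0.57 (-0.926 to -0.215, limma adjusted p = 1).

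**Figure D3:**
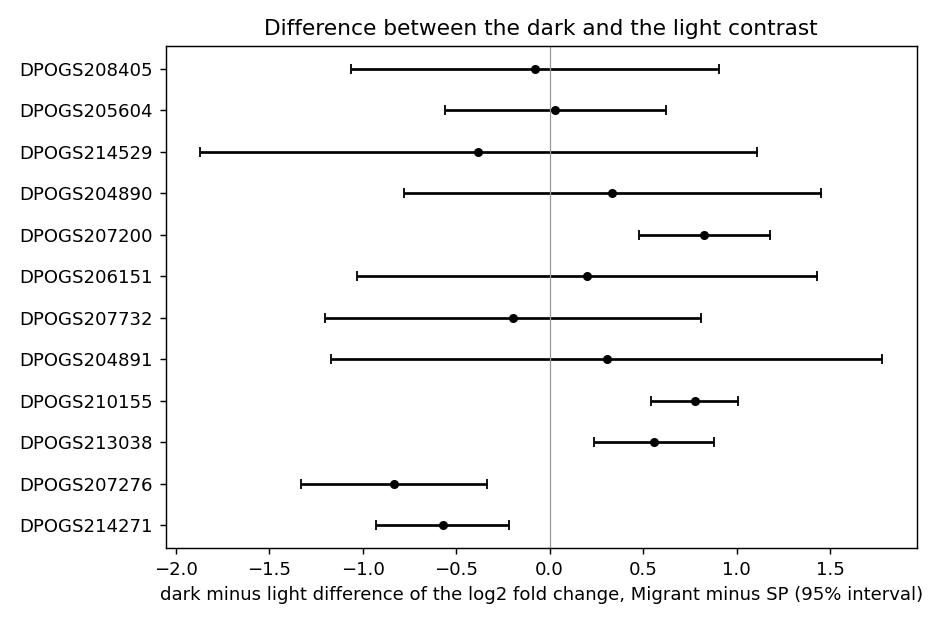
Dark minus light difference of the log2 fold change of Migrant minus SP for the 12 genes named from the fit, with 95% intervals from the limma fit that are not adjusted for the number of genes. For 7 of the 8 genes taken for the light or dark contrast the interval covers 0, and DPOGS207200, the exception, did not pass the adjustment; DPOGS210155 rests on 2 reads.

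The size of the lit-hour contrast depended on which SP pools entered it. Replicate 1 of SP was labelled male and replicate 2 female at every time, the reverse of Migrant and LP, and whether the SP labels were exchanged could not be settled. The SD over genes of the log2 difference from the mean of the lit Migrant libraries was 1.51, 1.46 and 1.31 for SP replicate 1 at ZT1, ZT4 and ZT7, and 0.882, 0.842 and 1.08 for replicate 2. By night the values ran from 0.975 to 1.25 for replicate 1 and from 0.935 to 1.21 for replicate 2, with replicate 1 farther at ZT13, ZT16 and ZT22 and replicate 2 farther at ZT19. Migrant libraries lay between 1.05 and 1.17 from the SP mean of their phase, except ZT22 replicate 1 at 1.53.

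With the SP replicate 1 libraries alone, 2113 genes were called and at least 2-fold lower in Migrant in lit hours, and with the SP replicate 2 libraries alone 579 were. The test of the difference called 280 genes with replicate 1 alone, 267 of them with the larger contrast in lit hours, and 9 with replicate 2 alone, 8 of them with the larger contrast in dark hours. These fits, chosen after the data were seen, leave 1 SP library at each time and take it to vary like the Migrant libraries. In the fit of all 28 libraries, 4287 of the 6930 genes had the larger contrast by day and 2643 by night. What sets the SP replicates apart was not tested.

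**Figure D4:**
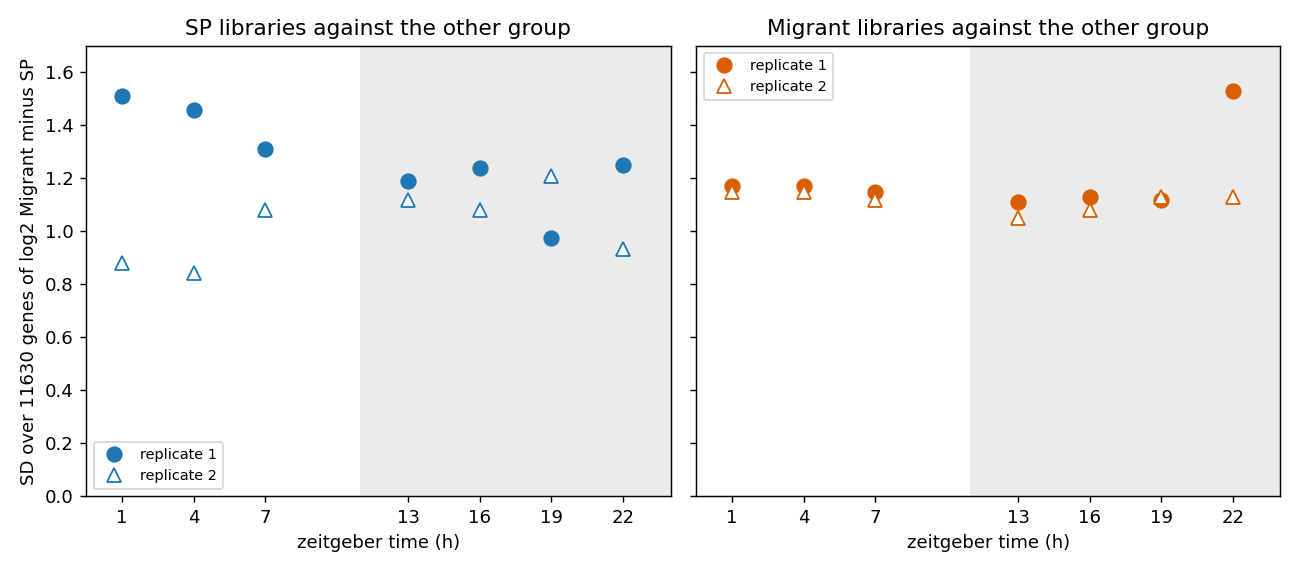
SD over 11630 genes of the log2 difference between each library and the mean of the other group's libraries in the same phase, against zeitgeber time, for SP (left) and Migrant (right); filled circles are replicate 1 and open triangles replicate 2, and grey marks dark hours. SP replicates are widely apart at ZT1 and ZT4, 1.51 against 0.882 and 1.46 against 0.842, and Migrant ZT22 replicate 1 lies alone at 1.53.

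The contrast followed the genomic span of a gene, its distance from start to end on the scaffold with introns included. In the longest 10% of tested genes, from 14339 to 331230 bases, the median log2 fold change was 0.82 in lit and 0.81 in dark hours, and 40% of these genes were at least 2-fold higher in Migrant in both phases, where all tested genes gave 16.9%. In the shortest 10%, up to 626 bases, the medians were -0.21 and -0.34, and 17.2% were at least 2-fold lower in both, where all tested genes gave 7.88%. Spearman's rho across genes between span and fold change was 0.291 by day and 0.348 by night.

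Abundance ran with the contrast as well. In the 10% of genes with the highest mean level the median log2 fold change was -0.83 in lit and -0.76 in dark hours, and 33% were at least 2-fold lower in Migrant in both phases. The highest medians, 0.49 and 0.36, were in the 10% of genes with means of 4.91 to 8.52 scaled FPKM, of which 29.1% were at least 2-fold higher. The course was not steady, since in the lowest 10% the medians were 0.03 and 0.07 and 4.9% were at least 2-fold higher. Mean level was taken over the same 28 libraries as the contrast. Span and abundance were not the same property. Among genes in the highest of 3 equal bins of abundance, the median in lit hours was -0.62 for the shortest of 3 bins of span, -0.44 for the middle and 0.09 for the longest. Among the longest bin, 34.3% of genes of middle abundance and 26.7% of those of low abundance were at least 2-fold higher in both phases. The part of the library kit in these trends cannot be told apart from that of the group. With the trend of span removed in each library, 6677 of the 7684 lit-hour calls and 6612 of the 7904 dark-hour calls kept their direction and their call, while 105 and 177 were called in the opposite direction. The share of calls higher in Migrant was then 42.6% by day and 40.6% by night.

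**Figure D5:**
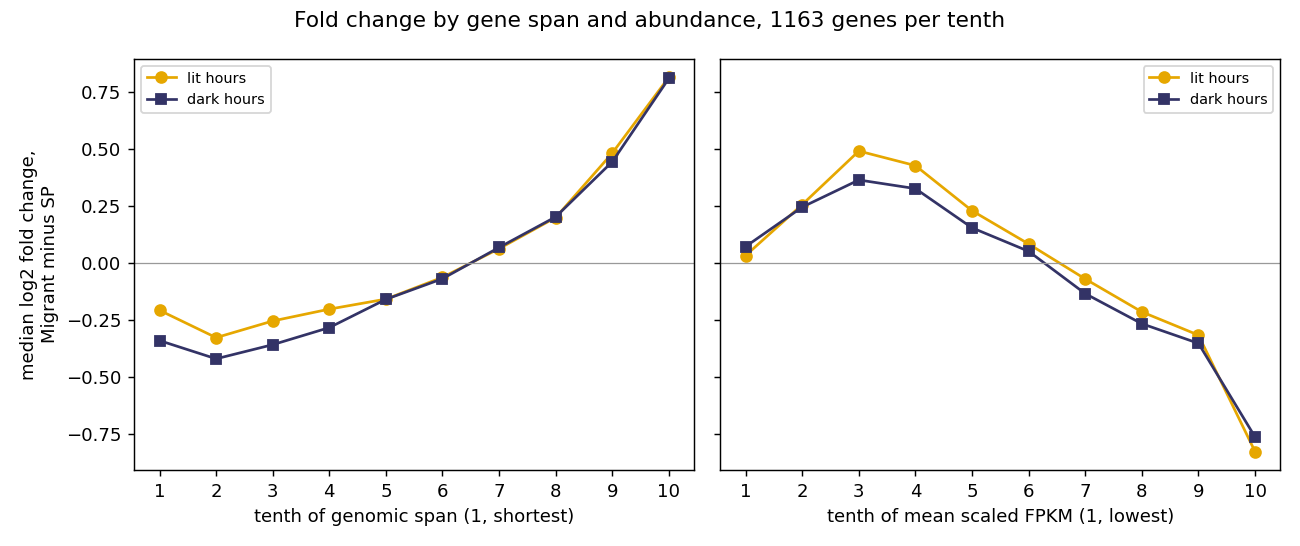
Median log2 fold change of Migrant minus SP for 10 equal bins of tested genes by genomic span (left) and by mean scaled FPKM (right), 1163 genes per bin, in lit (yellow) and dark (blue) hours. The medians go from -0.21 and -0.34 in the shortest genes to 0.82 and 0.81 in the longest, and fall to -0.83 and -0.76 in the most abundant, with the phases close together throughout.

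Genes next to each other on a scaffold had related contrasts. Across 10856 pairs of neighbouring tested genes the fold changes correlated at 0.223 by day and 0.222 by night, and across 7483 pairs 10 genes apart at 0.038 and 0.024. Of 294 scaffolds with 10 or more tested genes, those with the largest shares of genes at least 2-fold different in 1 direction in both phases were all higher in Migrant. Over all tested genes, 16.9% were at least 2-fold higher in both phases and 7.88% lower, so rises were the more common. That order rests on scaling, since without it 1327 genes were higher and 2022 lower in both. On DPSCF300146, 10 of 15 genes were higher, with log2 fold changes of 1.08 to 4.49 by day and 1.13 to 4.8 by night, between 33323 and 373967. On DPSCF300298, 9 of 14 were, from 1.59 to 2.88 by day and 1.39 to 2.99 by night, between 48295 and 377000. On DPSCF300200, 10 of 16 were, from 1.37 to 3.16 and 1.22 to 3.14, between 28382 and 251575. The 14 Migrant libraries lay above the 14 SP libraries in 6, 9 and 8 of these genes on the respective scaffolds. Over all 11630 tested genes, 2148 were so, but the genes counted on the scaffolds had been chosen as at least 2-fold higher in the same libraries. The counts are therefore not alike. The share among all genes at least 2-fold higher in both phases was not taken. The least-read gene of each of the 3 sets had 1.96, 11.1 and 5.05 reads per library. These scaffolds were picked by their values, and the median span of their tested genes was 4078, 7637.5 and 4387 bases, beside 3430.5 over all tested genes.

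A few genes were listed at 0 in every library of 1 group and above 0 in every library of the other. Of the 15130 genes, 4 were so in SP over all 28 libraries and 1 in Migrant. In lit hours alone there were 23 at 0 in SP and 1 at 0 in Migrant, and in dark hours alone 11 and 2. Among the genes at 0 in SP, DPOGS208747 (DPSCF300043, 484308 to 486935) had the most reads, with a scaled FPKM in Migrant of 0.775, 1.72 and 3.08 by day and 0.893, 1.47 and 3.57 by night, on 3 to 17 reads per library. It was above 0 in 1 of the 2 SP libraries of ZT10, so absence from SP does not hold outside these times. DPOGS208459 (DPSCF300064, 1772793 to 1778026) had 0.054, 0.108 and 0.255 in Migrant by day and 0.031, 0.108 and 0.178 by night, on up to 14.7 reads. It was at 0 in SP at ZT10 too, and above 0 in all 16 LP libraries at a median of 0.061. The gene at 0 in Migrant, DPOGS213566 (DPSCF300033, 5129 to 5247), had 120, 263 and 793 in SP by day and 217, 307 and 534 by night, on 6 to 29 reads. In so short a gene few reads give a high FPKM, so its level is uncertain. It was above 0 in all 16 LP libraries at a median of 84.6.

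LP gave a reference level for the genes at least 2-fold different in both phases on scaled values. Which genes these are depends on scaling, since without it 1327 were higher and 2022 lower in both. They were chosen by their Migrant and SP values, and shares over all tested genes were not taken for LP. How far library kit sets which group LP lies near was not tested. Both comparisons below use the same 14 LP libraries of the same 7 times, of which ZT13 is lit in LP. For the 1971 genes higher in Migrant than in SP, the median log2 level was 0.147 above LP in Migrant and 1.59 below LP in SP (a value of -1.59). On that scale LP was nearer to Migrant in 1781 of them (90.4%) and lay between the groups in 1200 (60.9%). For the 917 genes lower in Migrant, the medians were -0.442 in Migrant and 0.947 in SP, with LP nearer to Migrant in 663 (72.3%) and between the groups in 815 (88.9%). The genes named for their fold changes did not all follow this: DPOGS207200, DPOGS214529, DPOGS204890, DPOGS207732 and DPOGS204891 had LP medians nearer to SP on the log2 scale.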

How the data were processed

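Per the submitters' processing notes, CASAVA 1.8.2, TopHat2 and Cufflinks were used; the build and the versions of both latter tools are not given in the sources used here. All deposited values are FPKM made by the authors, 1 table per pool, with confidence limits. FPKM was divided by the median ratio to the geometric mean of 10595 genes above 0 in all 48 libraries (factors 0.908 to 1.2 in SP, 0.749 to 0.909 in Migrant), and log2(value + 1) was taken. Testing covered 11630 of 15130 genes, those whose FPKM averaged at least 0.5 across all libraries, with limma 3.58.1 in R 4.3.3 (trend and robust options, Benjamini-Hochberg adjustment), with a mean for each of 14 combinations of group and time and 14 residual degrees of freedom. LP and ZT10 entered only an alternative fit of all 48 libraries. Python 3.11.15, pandas 2.3.3 and matplotlib 3.10.9 joined tables and drew plots.

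Reads were recovered as (2 × FPKM / (upper limit - FPKM)) squared. Of those under 30, whole numbers (tolerance 0.05) made up 82.7% to 84.9% in each library, so no negative-binomial count test was used, and limma-voom on these reads was run as an alternative. The fit was tested on simulated data. Replicate numbers did not pair the pools. The comparison, lists and tests were chosen with earlier results of these data known. The rule for named genes took, among genes above 0 in all 28 libraries with 20 or more reads, the 2 largest rises and falls per comparison without overlap, and passed over genes already taken. The gene lists planned could not be run, because no identifier has a name.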

Additional observations from a re-analysis of the deposited data

Results flagged for a closer look

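Within groups of 6 or 8 libraries, 59 sets of values were examined for a library far from the others, and 1 was found, where chance gives about 1 in 20. Migrant ZT22 replicate 1 had a median correlation of 0.866 with its own group, and the other Migrant libraries in dark hours had 0.969 to 0.974. Without it 8333 genes were called in the dark contrast, against 7904 with it. For DPOGS210155 the dark minus light difference of the log2 fold change was 0.779 ± 0.11 (SE, limma adjusted p = 0.0239), a test of the difference between phases. It rested on 2 reads, both at ZT19, and was 0 without that time.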

How the results depend on the processing

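The counts of genes called in the light contrast (5146 to 8473 under the planned and added alternatives, 6885 to 8452 with 1 library left out) and in the dark contrast (6770 to 8774, and 7389 to 8353) stayed within 1.5 times the reported ones, and the 8 genes named for the light or dark contrast kept call and direction under all 47 alternatives. As deposited, without scaling, 2239 genes were at least 2-fold lower by day, 2752 lower and 1399 higher by night and 2022 lower in both, and 2496 were called higher by night. Quantile normalization shifted the median log2 fold change to -0.142 and -0.161. With SP replicate 1 alone, 2113 were at least 2-fold lower by day; with replicate 2 alone, 579 lower and 1508 higher by day, 507 lower in both, and 2232 were called lower by day. Without the 3 libraries that stand apart, 731 were at least 2-fold lower by day.

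The count for the difference between phases, 1 as reported, was 0 with quantile normalization, a pseudocount of 0.1, a mean FPKM of 2 or more, 10 reads or more, all 48 libraries, no term for time, voom, array weights or the span trend removed, 3 with no filter, 280 with SP replicate 1 alone and 9 with replicate 2 alone. With 1 library left out it ranged from 0 to 250, the latter without Migrant ZT22 replicate 2, and the cause was not tested. DPOGS213038 lost its lit-hour call without scaling (0.163), with quantile normalization (0.27), with the span trend removed (0.239) and with SP replicate 1 alone (0.339). DPOGS207200 gained a call for the difference with SP replicate 1 alone (0.892) and without Migrant ZT22 replicate 2 (0.872), and DPOGS214271 with SP replicate 1 alone (-0.78).

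In the replicate block fit, with replicate number within a time point as a block, 0 genes were called for the difference, and 7329 of 7684 light calls and 7584 of 7904 dark calls kept call and direction. With the sex label as a covariate, 7651 light calls and 7873 dark calls did, and 1 gene was called for the difference. Replicate differences of SP and Migrant at the same time correlated across genes at -0.0911 to 0.0823, so the pools share a number and no pairing. The SP replicate difference and the Migrant minus SP contrast hold the same SP libraries. Their correlation is therefore not separate evidence beside the replicate distances given above. Across genes the SP replicate difference correlated with the contrast at -0.631 at ZT1, -0.673 at ZT4, -0.375 at ZT7 and -0.17 at ZT13. At ZT16, ZT19 and ZT22 the values were -0.313, 0.436 and -0.505. Depth limits genes with few reads per library, such as those listed at 0.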
